A study of Mus musculus with 32 samples.

Results

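Tissue factor (F3) and 8 other genes of blood coagulation and fibrinolysis were followed in cultured mouse macrophages that did or did not carry a deletion of Nr4a1, the gene for the nuclear receptor Nur77. The 9 genes were F3, F7, F10, Thbd, Procr, Plau, Plaur, Serpinb2 and Thbs1, out of 25067 named genes in the deposited table, and all 9 passed the filter on low values that left 11279 genes for testing. They were chosen by the level of F3, which was higher in the knockout after 1 h of lipopolysaccharide (LPS), so the knockout against wild-type difference at 1 h is given for these genes as a description without a test. The list was also made with earlier results of these data known, so the other times are not fully independent of the choice. F3 was also higher in the knockout in the libraries that did not choose it, 2.8-fold before LPS and 2.21-fold after 5 h. F10 was higher in the knockout at each time tested, Procr and Plaur before LPS and after 18 h, and Serpinb2 after 18 h. Thbd was lower in the knockout after 18 h, and Thbs1 was lower before LPS but higher after 18 h.

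Tissue factor is the membrane receptor that starts the extrinsic pathway of coagulation: it binds factor VII (F7), and the complex activates factor X (F10), which with its cofactor makes thrombin. Thrombomodulin (Thbd) and the endothelial protein C receptor (Procr) turn thrombin towards activation of protein C, an anticoagulant. Urokinase (Plau) bound to its receptor (Plaur) turns plasminogen into plasmin, which dissolves fibrin and matrix, and the inhibitor Serpinb2 blocks urokinase. Thrombospondin 1 (Thbs1) is a secreted matrix and platelet granule protein that binds Cd36 and Cd47. Macrophages and monocytes are known to make tissue factor when they meet LPS, a bacterial cell wall component sensed through Toll-like receptor 4.

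The data were bulk RNA-seq of bone marrow-derived macrophages (BMDM), grown for a week in medium conditioned by L929 cells, from wild-type (BMDM-WT) and Nur77 knockout (BMDM-Nur77-KO) mice. Cells of each genotype were left untreated (0 h) or given 100 ng/ml LPS for 1, 5 or 18 h, with 4 libraries in each of the 8 groups. The mice were males 6 to 12 weeks old on the C57Bl6/J background. In the knockout, loxP-flanked Nr4a1 had been deleted with CMV-Cre, which is active in all tissues, and the Cre had then been bred out (the labels write this genotype as cre). The wild-type mice were littermates. The number of animals behind the 4 libraries of a group is not given in the sources used here, so the p-values measure the spread between these libraries, which may be technical.

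Library totals, summed over the transcript kept for each gene and not over all deposited transcript rows, were 8742362 to 15780926 counts (median 11847140). Levels are given as CPM, counts per 1000000 of the scaled library total, with the SD over n = 4 libraries after a ± sign. Nr4a1, the targeted gene, read 19.6 ± 4.33 CPM in untreated BMDM-WT against 5.23 ± 1.18 CPM in the knockout, and 436 ± 60.2 against 190.1 ± 39.8 CPM after 1 h, with no overlap between genotypes at either time. Reads of the gene thus remained in the knockout, and which exons they came from was not examined. Later Nr4a1 was near the floor in both genotypes. It read 0.93 ± 0.115 CPM in BMDM-WT and 0.312 ± 0.26 CPM in the knockout at 5 h. At 18 h it read 0.318 ± 0.131 and 0.225 ± 0.183 CPM, with overlapping libraries. All 8 macrophage markers were over 1 CPM in every group. Of the endothelial markers, Cldn5 was at 0 in every group and Tek at no more than 0.0222 CPM on average, whereas Vwf was at 32.6 to 92.2 CPM and Kdr at 0.394 to 24.0 CPM. In the bulk libraries, fewer cells of a type and less RNA per cell cannot be told apart.

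Sequences before the start sites of 6 of the 9 genes were matched in RefSeq (GRCm38.p6). The 250 bases before the start are shown for F3 and for the other members in which any of 5 motifs was found, since the members were compared here after LPS and without Nur77. The motifs were AP-1 (TGANTCA), the cAMP response element (TGACGTCA), the NBRE of Nur77 and its relatives (AAAGGTCA), the EGR motif (GCGGGGGCG) and NF-kB by its consensus, each searched on both strands, and capitals mark the matches. F3 held AP-1 at 146 to 140 and again at 135 to 129 bases before the start (chr3:121723287-121723536, plus strand), Procr at 154 to 148 (chr2:155750967-155751216, plus strand), Plaur at 69 to 63 beside an EGR match at 109 to 101 (chr7:24462233-24462482, plus strand), and Serpinb2 at 94 to 88 (chr1:107511173-107511422, plus strand; an overlapping window of a later start held the same match). F7 held an NBRE on the minus strand at 34 to 27 bases before the start (chr8:13025784-13026033, plus strand of the gene). The windows of F7, Plaur and Serpinb2 lay inside the span of the gene, which began further upstream (chr8:13025506, chr7:24460937 and chr1:107500892). That of Procr lay partly inside its span (from chr2:155751125). For these genes the start used here is thus later than the first base of the gene.
F3: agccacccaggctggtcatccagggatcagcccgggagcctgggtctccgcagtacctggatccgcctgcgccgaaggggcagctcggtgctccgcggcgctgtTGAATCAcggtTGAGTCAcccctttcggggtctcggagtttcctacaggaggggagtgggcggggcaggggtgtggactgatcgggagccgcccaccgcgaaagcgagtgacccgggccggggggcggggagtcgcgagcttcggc
Procr: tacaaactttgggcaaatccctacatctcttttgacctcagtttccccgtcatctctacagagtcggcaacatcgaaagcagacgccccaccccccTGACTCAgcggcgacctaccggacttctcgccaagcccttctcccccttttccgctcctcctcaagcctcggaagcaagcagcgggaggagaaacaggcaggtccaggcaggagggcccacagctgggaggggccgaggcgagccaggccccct
Plaur: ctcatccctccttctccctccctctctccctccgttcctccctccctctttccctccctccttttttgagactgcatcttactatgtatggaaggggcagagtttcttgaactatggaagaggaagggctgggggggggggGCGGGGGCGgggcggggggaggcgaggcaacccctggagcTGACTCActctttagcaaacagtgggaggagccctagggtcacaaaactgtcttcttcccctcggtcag
Serpinb2: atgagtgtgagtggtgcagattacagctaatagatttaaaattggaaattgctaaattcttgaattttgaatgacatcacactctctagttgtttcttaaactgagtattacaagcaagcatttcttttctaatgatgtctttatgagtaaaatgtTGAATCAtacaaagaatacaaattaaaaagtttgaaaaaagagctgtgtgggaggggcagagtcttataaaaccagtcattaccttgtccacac
F7: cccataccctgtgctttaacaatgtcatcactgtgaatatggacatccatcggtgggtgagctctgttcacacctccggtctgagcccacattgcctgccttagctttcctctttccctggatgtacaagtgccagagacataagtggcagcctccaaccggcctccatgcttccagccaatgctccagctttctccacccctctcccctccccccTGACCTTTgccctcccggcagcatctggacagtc
In F10 none of the 5 motifs was in the window. Over all 32851 windows of the same length, 6.75% held AP-1, 1.55% the cAMP response element, 1.34% the NBRE, 2.57% EGR and 3.9% NF-kB. AP-1 letters were thus in 4 of the 6 members' windows. A match describes letters only and no binding was measured.

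The members stood at very different levels. Per kilobase of transcript, Plau led at 0 h in BMDM-WT with a mean of 779.9 CPM per kb, followed by Plaur at 52.9, Thbs1 at 43.0, F10 at 8.7, F7 at 8.61 and Procr at 6.81 CPM per kb. Thbd (2.8 CPM per kb), F3 (1.56) and Serpinb2 (0.176) were the lowest. After 18 h of LPS the order in BMDM-WT was headed by F10 at 134 CPM per kb, then Procr at 77.7 and Thbs1 at 66.5, and F3 was last at 0.0597 CPM per kb. Among these 9 genes, urokinase mRNA thus stood highest in untreated wild-type macrophages and factor X mRNA after 18 h.

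**Figure D1:**
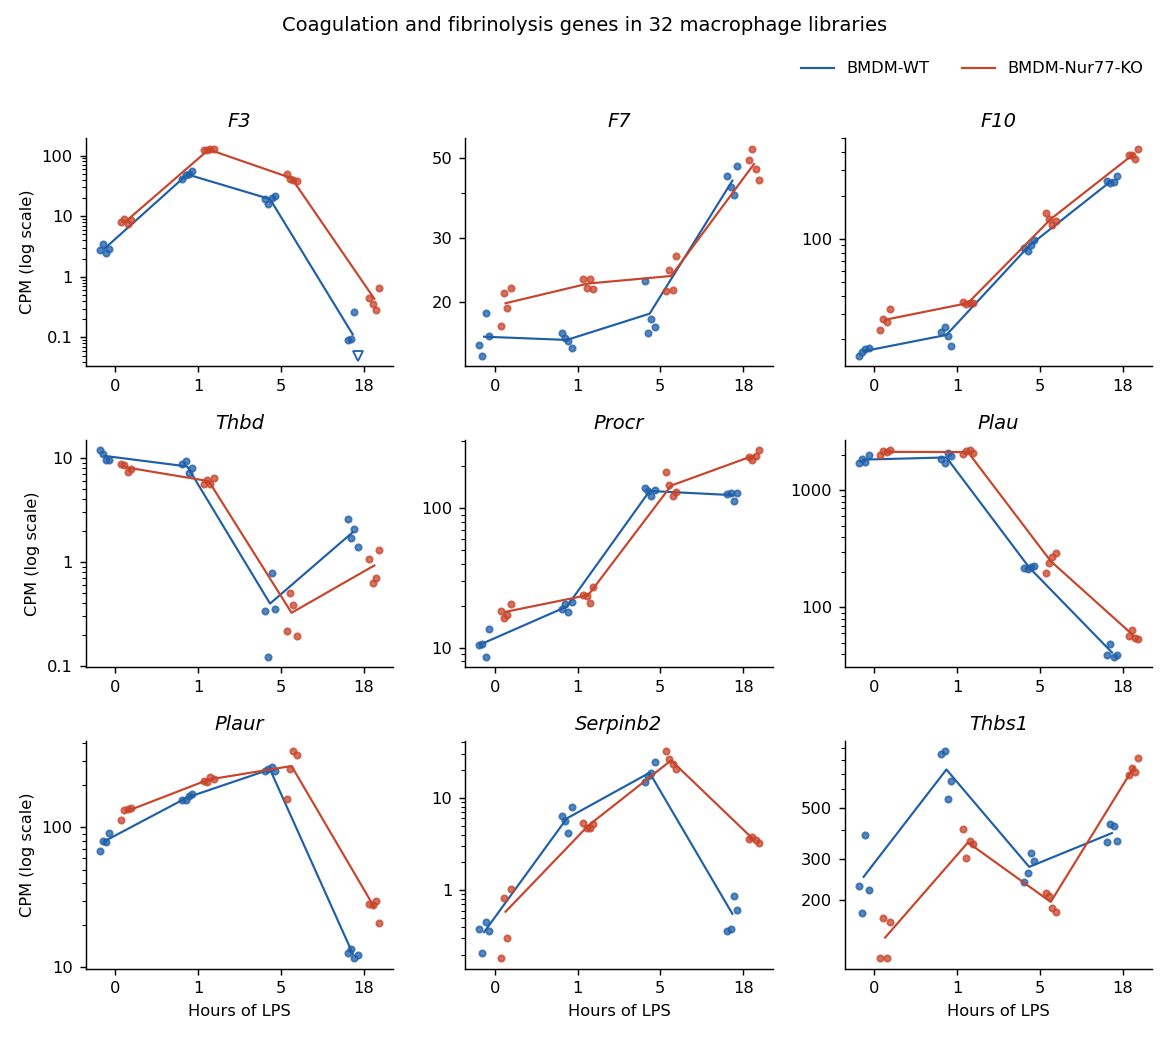
Level of each gene (CPM, log scale) against hours of LPS. Each point is a library, lines join the means of 4 libraries, blue is BMDM-WT and red BMDM-Nur77-KO; the open triangle marks a library with no F3 count. F3 peaks at 1 h in both genotypes, Plau falls from a mean of 1826 to 41.3 CPM in BMDM-WT, and Thbs1 crosses from lower to higher in BMDM-Nur77-KO between 5 and 18 h.

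Differences between genotypes were called at an adjusted p under 0.05 in edgeR's quasi-likelihood test with a log2 fold change over 0.58 either way, and those between times with a log2 fold change over 1. Before LPS, F3, F10, Procr and Plaur, 4 of the 9 members, stood higher in BMDM-Nur77-KO and 1, Thbs1, lower, where 4.81% of all genes tested were called. At 5 h 2 were higher (F3, F10) and none lower, against 8.73% of all genes. Without replicate 1 of BMDM-Nur77-KO, or without replicate 2 of BMDM-WT, at 5 h the count was 1. At 18 h 6 were higher (F3, F10, Procr, Plaur, Serpinb2, Thbs1) and 1 lower (Thbd), against 9.82%. The summed level of the 8 macrophage markers was lower in the knockout at that time, with no overlap. It was 11039 to 12653 CPM against 14022 to 14672 CPM in BMDM-WT. The sum was also lower without overlap at 5 h, at 13265 to 16098 CPM against 16539 to 17970.1 CPM. Lyz2 was the largest part of it at both times, with means of 8182 against 8799.6 CPM at 5 h. At 5 h Mertk (518 against 364 CPM) and Cd68 (1579 against 1550.2 CPM) had higher means in the knockout. The means of the others were lower at 5 h, that of Itgam only slightly (1057 against 1074 CPM). Of these markers at 18 h, Mertk alone had a higher mean in the knockout (512 against 317 CPM). Cd14 was about the same (287 against 289 CPM). The part of these markers in the genotype differences was not tested. The median log2 difference of the members was 0.71 at 0 h, 0.18 at 5 h and 0.93 at 18 h, beside -0.03, 0.02 and -0.01 over all genes. At 1 h, where F3 chose the list, the median was 0.28 and 2.86% of all genes were called, and nothing is read from these. Because the 9 genes were listed with earlier results of these data known, the shares of members called are descriptions only.

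LPS moved most of the members. In BMDM-WT, 4 members were higher at 1 h than at 0 h (F3, Plaur, Serpinb2, Thbs1) and none lower, where 5.19% of all genes were called. At 5 h 5 were higher (F3, F10, Procr, Plaur, Serpinb2) and 2 lower (Thbd, Plau), where 33.7% of all genes were called. At 18 h 3 were higher (F7, F10, Procr) and 4 lower (F3, Thbd, Plau, Plaur), against 27.4%. In BMDM-Nur77-KO the counts were 3 higher at 1 h (F3, Serpinb2, Thbs1; 4.53% of all genes), 5 higher and 2 lower at 5 h (32.6%), and 5 higher and 4 lower at 18 h (31.8%), when Serpinb2 and Thbs1 joined those higher in BMDM-WT. The counts at 1 h, and those from 1 to 5 h below, include F3, which was chosen from the 1 h libraries.

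Between successive times the members turned in both directions. From 1 to 5 h, 3 rose and 4 fell in BMDM-WT (30.2% of all genes called) and 3 rose and 3 fell in BMDM-Nur77-KO (31.2%). From 5 to 18 h, 3 rose and 4 fell in BMDM-WT (30.1%) and 4 rose and 4 fell in BMDM-Nur77-KO (28.6%). Of the 4 that rose, F7 was at the limit on size, with a log2 change of 1.02 that was 0.97 in DESeq2 and with its size factors and 0.97 to 0.98 without replicate 1 or 3 at 5 h or replicate 2 at 18 h, each below the limit. Whether LPS acted differently in the genotypes was tested as the difference between their changes from 0 h, called by adjusted p alone. This interaction was called for Procr at 5 h (3.1% of all genes) and for Thbs1 at 18 h (9.4% of all genes), and for no other member at those times.

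F3 was low before LPS and higher in the knockout. In BMDM-WT the 4 libraries at 0 h read 2.74, 3.52, 2.49 and 2.89 CPM. Those of BMDM-Nur77-KO read 8.0, 8.95, 7.49 and 8.57 CPM. Every knockout library was above every wild-type library, and the log2 difference was 1.48 ± 0.14 (SE; adjusted p = 1.2e-08, quasi-likelihood test of edgeR with p-values adjusted after Benjamini and Hochberg). At 5 h BMDM-WT read 18.9, 16.1, 20.2 and 21.3 CPM and BMDM-Nur77-KO 49.4, 41.5, 39.6 and 38.6 CPM. The groups were again apart, with a log2 difference of 1.14 ± 0.12 (adjusted p = 2.0e-08, same test).

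At 1 h, the comparison that chose it, F3 read 41.5, 47.5, 50.1 and 56.3 CPM in BMDM-WT and 121, 122, 129 and 130 CPM in BMDM-Nur77-KO. These means, 48.9 ± 6.12 and 125 ± 4.57 CPM, were the highest of the time course in each genotype, and their ratio of 2.57 carries no test. The rise from 0 to 1 h was 4.04 ± 0.14 on the log2 scale in BMDM-WT (adjusted p = 4.1e-21, edgeR's quasi-likelihood test). In BMDM-Nur77-KO it was 3.92 ± 0.12 (adjusted p = 9.5e-22, same test). Both tests reuse the 1 h libraries that chose F3 and are not independent of that choice. The difference between the genotypes' rises was not tested. By 5 h F3 had fallen from its peak by 1.35 on the log2 scale in BMDM-WT and by 1.57 in BMDM-Nur77-KO, and the change from 0 to 5 h did not pass the test for a difference between genotypes (-0.34 ± 0.19, adjusted p = 0.39).

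After 18 h F3 was nearly gone. The BMDM-WT libraries held 0 to 3 counts each, 5 in all, and those of BMDM-Nur77-KO 4 to 8 counts each, 21 in all. Set against 0 h, the summed counts were 26.5-fold lower in BMDM-WT (95% interval 11.2 to 82.7, exact binomial, counting error only) and 19.4-fold lower in BMDM-Nur77-KO (12.5 to 31.6). The knockout to wild-type ratio of summed counts at 18 h was 3.82 (1.4 to 13.0). The edgeR test called it (adjusted p = 0.016), and the call was lost without replicate 4 of either genotype (adjusted p = 0.099 without that of BMDM-WT and 0.092 without that of BMDM-Nur77-KO) and with only those libraries in the fit (0.09).

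In order of their mean level, F3 stood highest in BMDM-Nur77-KO at 1 h, then in BMDM-WT at 1 h and BMDM-Nur77-KO at 5 h, whose libraries overlapped. BMDM-WT at 5 h, BMDM-Nur77-KO at 0 h, BMDM-WT at 0 h, BMDM-Nur77-KO at 18 h and BMDM-WT at 18 h followed, each apart from the next. The genes with the most similar profile over the 8 group means of log2(CPM + 0.5) were Mir22hg (Pearson r = 0.981), Hnrnpll (0.98), Abhd17c (0.976), Pde12 (0.975) and Rhob (0.974), out of 6924 genes whose group means spanned at least 1 on the log2 scale. Among the members Plaur came nearest, with r = 0.918 over the 8 groups. The groups share wild-type and time structure, and these values are descriptions.

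**Figure D2:**
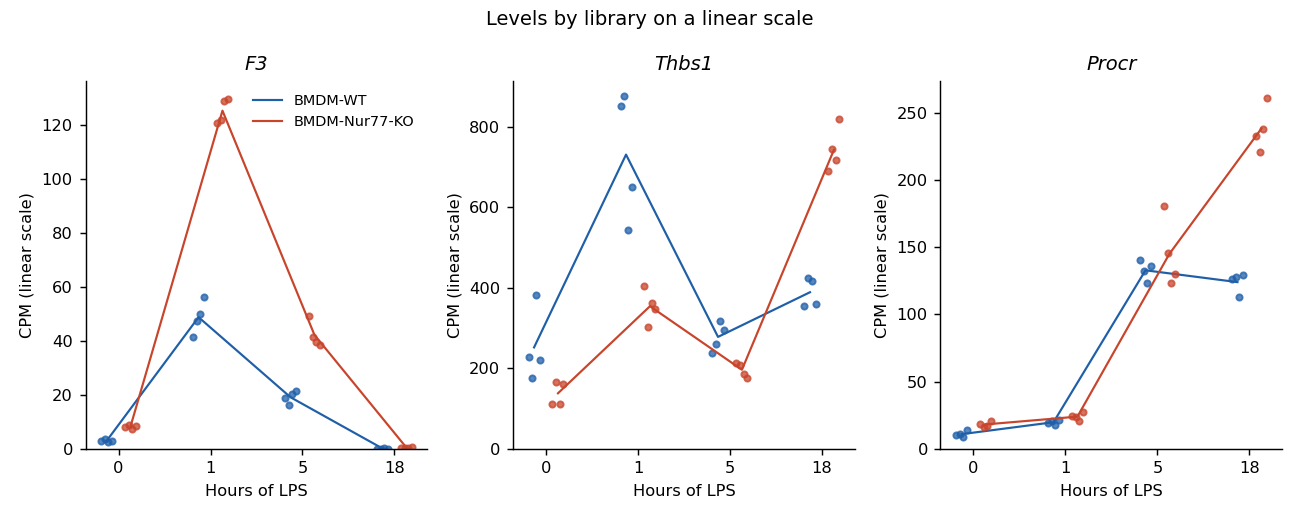
F3, Thbs1 and Procr in CPM on a linear scale against hours of LPS, a point per library and lines through the group means. The F3 peak at 1 h is 48.9 CPM in BMDM-WT and 125 CPM in BMDM-Nur77-KO; Thbs1 at 18 h is 389 and 742 CPM, and Procr at 18 h is 124 and 238 CPM.

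F7, the ligand of tissue factor, was little affected early and rose late. At 0 h it read 14.2 to 18.6 CPM in BMDM-WT and 17.1 to 21.9 CPM in BMDM-Nur77-KO, ranges that overlapped. Its means in BMDM-WT were 16.0 ± 1.86, 15.7 ± 0.649, 18.6 ± 3.0 and 43.2 ± 3.58 CPM at 0, 1, 5 and 18 h. In BMDM-Nur77-KO they were 19.8 ± 2.14, 22.5 ± 0.855, 23.6 ± 2.58 and 48.0 ± 4.09 CPM. The rise to 18 h passed the test in both genotypes, with log2 changes of 1.44 ± 0.1 (adjusted p = 1.3e-13) and 1.27 ± 0.1 (adjusted p = 1.3e-12). The genotype differences of 0.31 at 0 h (adjusted p = 0.044) and 0.35 at 5 h (adjusted p = 0.019) lay below the limit on size, and that at 18 h was 0.15 (adjusted p = 0.29).

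F10 climbed throughout and was higher in the knockout at each time tested. At 0 h BMDM-WT read 15.4, 16.3, 17.1 and 17.4 CPM and BMDM-Nur77-KO 23.1, 27.5, 26.4 and 32.5 CPM. At 18 h BMDM-WT read 252, 246, 249 and 273 CPM and BMDM-Nur77-KO 383, 385, 359 and 424 CPM. The genotypes did not overlap at any time. The log2 difference was 0.73 ± 0.09 at 0 h (adjusted p = 1.8e-06), 0.62 ± 0.09 at 5 h (adjusted p = 7.6e-06) and 0.61 ± 0.08 at 18 h (adjusted p = 2.2e-06), close to the limit of 0.58.

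Leaving out replicate 2 of BMDM-WT or replicate 1 of BMDM-Nur77-KO at 5 h brought the F10 difference at that time to 0.58 or 0.56, and leaving out replicate 4 of BMDM-Nur77-KO brought that at 18 h to 0.56, each no longer past the limit on size and with adjusted p of 9.4e-05, 2.6e-05 and 1.6e-05. LPS raised F10 by 2.43 ± 0.09 at 5 h and 3.94 ± 0.1 at 18 h in BMDM-WT, a 15.4-fold rise, and by 2.33 ± 0.09 and 3.82 ± 0.1 in BMDM-Nur77-KO. The genotypes' changes from 0 h differed by -0.11 ± 0.13 at 5 h (adjusted p = 0.75) and -0.12 ± 0.13 at 18 h (adjusted p = 0.68). F7 and F10 are neighbours on chromosome 8, at 13025506 to 13035809 and 13037308 to 13056676 (GRCm38).

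Thbd, the thrombin receptor of the protein C pathway, fell under LPS. At 0 h BMDM-WT read 11.9, 10.8, 9.5 and 9.55 CPM and BMDM-Nur77-KO 8.63, 8.57, 7.34 and 7.85 CPM. At 5 h only 14 counts over the 4 libraries remained in each genotype, a summed level 25.8-fold lower than at 0 h in BMDM-WT (95% interval 15.2 to 47.4, exact binomial) and 24.2-fold lower in BMDM-Nur77-KO (14.3 to 44.7). It came back in part by 18 h, to 2.56, 1.71, 2.08 and 1.38 CPM in BMDM-WT and 1.07, 0.622, 0.699 and 1.31 CPM in BMDM-Nur77-KO. These rest on 16 to 28 counts in each BMDM-WT library and 7 to 16 in each BMDM-Nur77-KO library.

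Each knockout library at 18 h lay below each wild-type library for Thbd, with a log2 difference of -1.06 ± 0.25 (adjusted p = 0.0019, edgeR's quasi-likelihood test). At 0 h the groups were also apart, but the difference of -0.36 ± 0.15 did not pass (adjusted p = 0.1). The genotypes' changes from 0 to 18 h differed by -0.7 ± 0.29 (adjusted p = 0.14).

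Procr, the other receptor of the protein C pathway, rose under LPS. At 0 h BMDM-WT read 10.5, 10.7, 8.6 and 13.7 CPM and BMDM-Nur77-KO 18.3, 16.4, 17.1 and 20.7 CPM. At 5 h the levels were 140.2, 132, 123 and 136 CPM and 181, 146, 123 and 130.2 CPM. At 18 h they were 126, 128, 113 and 129 CPM and 233, 221, 238 and 261 CPM. The genotypes were apart at 0 and 18 h and overlapped at 5 h. In log2 terms the knockout was higher by 0.73 ± 0.12 at 0 h (adjusted p = 8.5e-05), by 0.13 ± 0.11 at 5 h (adjusted p = 0.39) and by 0.94 ± 0.11 at 18 h (adjusted p = 5.9e-08).

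From 0 to 5 h Procr rose 12.2-fold in BMDM-WT and 8.0-fold in BMDM-Nur77-KO. The rise was smaller in the knockout by 0.61 on the log2 scale (SE 0.16, adjusted p = 0.033), but leaving out any of 11 of the 16 libraries compared took the adjusted p to between 0.051 and 0.09, and a fit to those 16 libraries alone gave 0.1. From 5 to 18 h Procr changed by -0.1 ± 0.11 in BMDM-WT (adjusted p = 0.43) and by 0.72 ± 0.11 in BMDM-Nur77-KO (adjusted p = 7.4e-07, below the limit on size). Thbd and Procr are known from endothelium. The summed level of the 6 endothelial markers was 84.8 to 90.0 CPM in BMDM-WT and 54.6 to 98.8 CPM in BMDM-Nur77-KO at 18 h, most of it Vwf and Kdr. Kdr was higher at 5 and 18 h than before LPS, as Procr was. Its means were 1.11, 15.7 and 24.0 CPM at 0, 5 and 18 h in BMDM-WT and 0.394, 6.46 and 22.8 CPM in BMDM-Nur77-KO. Cdh5 went from 0.381 to 3.3 CPM by 5 h in BMDM-WT but was lower at 18 h than at 5 h. Vwf, the most abundant of these markers, was lower at 5 and 18 h than before LPS in both genotypes. Its means at 0, 5 and 18 h were 71.2, 34.2 and 62.2 CPM in BMDM-WT and 77.8, 32.6 and 58.6 CPM in BMDM-Nur77-KO. Egfl7, at no more than 0.244 CPM on average, was also lower at 5 and 18 h. The part of these markers in the result was not tested.

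Plau, the most abundant member in untreated cells, fell steeply. At 0 h it read 1716, 1854, 1755 and 1980.2 CPM in BMDM-WT and 1991, 2177, 2133 and 2208 CPM in BMDM-Nur77-KO. Its levels at 1 h were about the same, at means of 1906 ± 154 and 2118 ± 61.8 CPM. At 18 h the libraries read 39.6, 48.5, 37.7 and 39.3 CPM and 56.8, 64.6, 55.3 and 53.6 CPM. LPS lowered Plau 44.3-fold by 18 h in BMDM-WT (adjusted p = 6.1e-27) and 37.0-fold in BMDM-Nur77-KO (adjusted p = 6.7e-27). Knockout libraries were above all wild-type libraries at 0 and 18 h, by 0.22 ± 0.09 (adjusted p = 0.11) and 0.48 ± 0.09 (adjusted p = 2.6e-04) in log2 terms, the latter below the limit on size.

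Plaur, the urokinase receptor, first rose and then fell. At 0 h it read 67.3, 80.5, 79.0 and 91.8 CPM in BMDM-WT and 113, 134, 135 and 137 CPM in BMDM-Nur77-KO. At 18 h it read 12.6, 13.6, 11.6 and 12.2 CPM and 28.6, 28.1, 29.9 and 20.9 CPM. The genotypes were apart at both times, with log2 differences of 0.71 ± 0.14 (adjusted p = 9.3e-04) and 1.1 ± 0.16 (adjusted p = 3.8e-06). At 5 h BMDM-WT was tight, at 253, 261, 270.2 and 253 CPM, while BMDM-Nur77-KO spread over 159.5, 259.9, 349 and 328 CPM.

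Replicate 1 of BMDM-Nur77-KO at 5 h was the lowest of its group for Plaur, Plau and F7 and the highest for F3, F10, Procr, Serpinb2 and Thbs1. The factor that scaled its library total was the lowest of all 32 libraries (0.712). Outside the members, it was the lowest of its group for Lrp1 (189.6 CPM) and the highest for F2r (17.4 CPM). The Plaur difference at 5 h was 0.08 ± 0.14 (adjusted p = 0.69) with this library and 0.27 (adjusted p = 0.071) without it. In BMDM-WT Plaur rose 2.05-fold by 1 h (adjusted p = 1.1e-06) and 3.25-fold by 5 h, and was 6.37-fold lower than at 0 h by 18 h. In BMDM-Nur77-KO the changes were 1.69-fold, 2.11-fold and 4.83-fold lower. Their changes from 0 h differed by -0.62 ± 0.2 at 5 h (adjusted p = 0.087) and 0.4 ± 0.21 at 18 h (adjusted p = 0.3).

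Serpinb2, an inhibitor of urokinase, rose from a very low level under LPS and was higher in the knockout at 18 h. At 0 h it held 4 to 6 counts in each BMDM-WT library and 2 to 13 in each BMDM-Nur77-KO library, or 0.351 ± 0.103 and 0.585 ± 0.406 CPM. At 5 h the means were 18.8 ± 3.95 and 25.6 ± 4.98 CPM, with overlapping libraries. At 18 h BMDM-WT was back to 0.365, 0.38, 0.868 and 0.603 CPM, whereas BMDM-Nur77-KO read 3.57, 3.73, 3.5 and 3.27 CPM. These rest on 4 to 10 counts in each BMDM-WT library and 40 to 50 in each BMDM-Nur77-KO library. The libraries of the genotypes lay apart at 18 h, by 2.63 ± 0.32 on the log2 scale, or 6.18-fold (adjusted p = 2.4e-07).

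Against 0 h, the Serpinb2 change at 18 h was 0.71 ± 0.48 in BMDM-WT (adjusted p = 0.19) and 2.52 ± 0.31 in BMDM-Nur77-KO (adjusted p = 1.5e-08). The test of the difference between these changes gave 1.8 ± 0.6 (adjusted p = 0.058). It passed in the DESeq2 Wald test (adjusted p = 0.018). With all transcript rows of the gene summed, the edgeR test gave an adjusted p of 0.024. The 2 rows of Serpinb2 had similar mean counts (78.97 and 77.36). Their sum may count reads shared by both transcripts more than once, and nothing is read from that pass. By 5 h the rise was 54.1-fold in BMDM-WT and 41.6-fold in BMDM-Nur77-KO.

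Thbs1 changed the direction of its genotype difference. At 0 h it read 229, 175, 382 and 221 CPM in BMDM-WT and 112, 167, 112 and 160.3 CPM in BMDM-Nur77-KO. At 5 h it read 239, 260.3, 318 and 294 CPM and 214, 209, 185 and 177 CPM. At 18 h it read 354, 425, 417 and 359 CPM and 689, 745, 716 and 819 CPM. All knockout libraries were below all wild-type libraries at 0 and 5 h and above them at 18 h.

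The log2 difference of Thbs1 was -0.87 ± 0.18 at 0 h (adjusted p = 9.9e-04), -0.5 ± 0.17 at 5 h (adjusted p = 0.037, below the limit on size) and 0.93 ± 0.17 at 18 h (adjusted p = 1.5e-04, edgeR's quasi-likelihood test). At 1 h, described without a test, the means were 731 ± 160.1 CPM in BMDM-WT and 354 ± 41.9 CPM in BMDM-Nur77-KO. The early rise was 2.9-fold in BMDM-WT (adjusted p = 3.8e-08) and 2.57-fold in BMDM-Nur77-KO (adjusted p = 5.0e-07). From 0 to 18 h Thbs1 changed 1.55-fold in BMDM-WT, below the limit on size, and 5.38-fold in BMDM-Nur77-KO. These changes differed by 1.8 ± 0.25 on the log2 scale (adjusted p = 6.6e-06), and by 1.53 to 1.94 with any library left out.

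Platelets carry Thbs1 protein, and the summed level of 6 megakaryocyte and platelet markers was 80.8 to 93.5 CPM in BMDM-WT and 52.9 to 59.3 CPM in BMDM-Nur77-KO at 0 h, and 31.0 to 40.3 and 27.2 to 33.4 CPM at 18 h. Nearly all of it was Pf4, at means of 79.5 and 50.2 CPM at 0 h, and Gp9 and Itga2b stayed at means of at most 0.0272 and 0.182 CPM in any group. The sum was thus lower in the knockout at 0 h, as Thbs1 was, and overlapped at 18 h, when Thbs1 was higher. Gp1ba went the other way at 0 h, with means of 4.3 CPM in BMDM-WT and 5.03 CPM in BMDM-Nur77-KO. So did Itga2b (0.0809 and 0.109 CPM), while the other markers of this list had lower means in the knockout. The 6 fibroblast markers summed to no more than 1.88 CPM in any library. The part of these markers in the Thbs1 result was not tested.

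**Figure D3:**
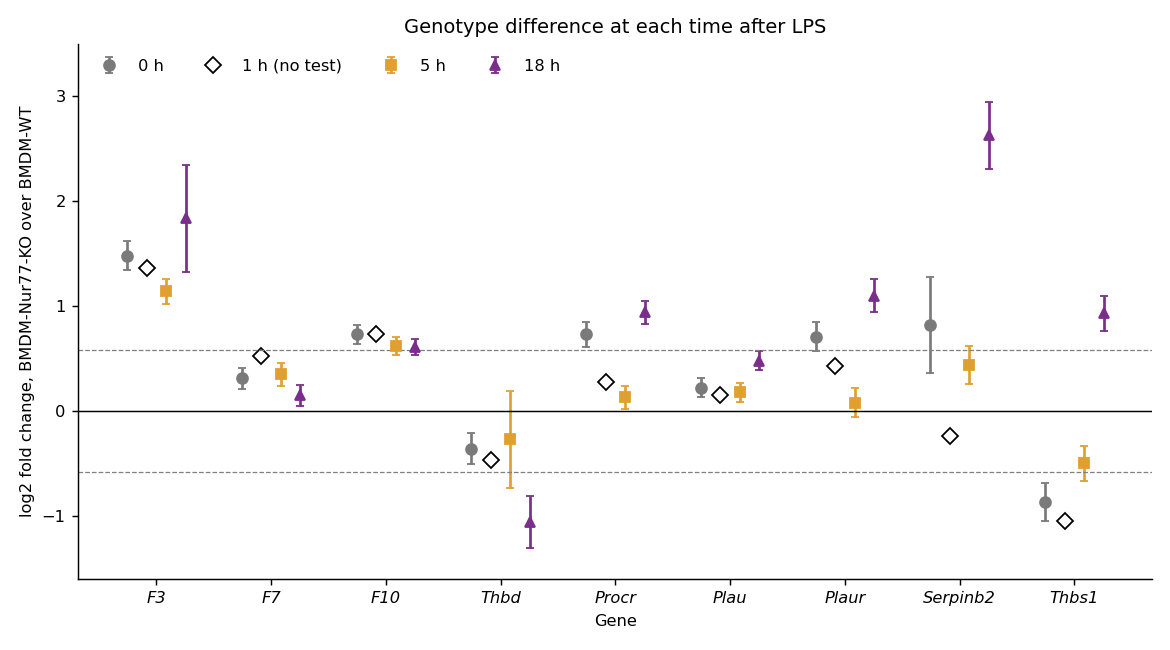
Log2 fold change of BMDM-Nur77-KO over BMDM-WT for each gene at 0, 1, 5 and 18 h of LPS; bars are standard errors from the edgeR fit, open diamonds mark 1 h, where no test was made, and dashed lines the limit of 0.58 either way. F3 and F10 lie above the limit at every time, Thbs1 moves from -0.87 at 0 h to 0.93 at 18 h, and Serpinb2 at 18 h is at 2.63; F3 at 18 h rests on 0 to 3 counts in each BMDM-WT library, and Serpinb2 at 18 h on 4 to 10.

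The other genes of the pathway were taken from a list of 47 genes in 4 groups (procoagulant factors and their receptors, anticoagulants, plasminogen activation and its inhibitors, thrombospondins and their receptors), of which 23 passed the filter. The liver-made factors F2, F12, Fga, Fgb, Fgg and Plg had no count in any library. F5, the cofactor of factor X, did not pass the filter and reached a highest group mean of 2.78 CPM. In BMDM-Nur77-KO against BMDM-WT, 2 of the 23 were higher and none lower at 0 h (median log2 difference 0.13), 2 were higher and 1 lower at 5 h (median 0.13), and 3 were higher and 1 lower at 18 h (median -0.05), where 4.81%, 8.73% and 9.82% of all genes were called at these times. The count at 5 h, 3 in all, was 1 without replicate 3 of BMDM-WT or replicate 1 of BMDM-Nur77-KO, 7 without replicate 4 of BMDM-Nur77-KO and 0 in a fit to the 5 h libraries alone. The all-gene medians were the -0.03, 0.02 and -0.01 given above.

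The genes called higher at 18 h were F9 (coagulation factor IX; 1.58 ± 0.33, adjusted p = 6.1e-04), F2rl2 (a protease-activated receptor; 1.58 ± 0.4, adjusted p = 0.0043) and S100a10, which binds plasminogen together with annexin A2 (1.39 ± 0.07, adjusted p = 1.2e-14). The counts behind F9 and F2rl2 at 18 h were few. F9 held 6 to 14 counts in each BMDM-WT library and 18 to 54 in each BMDM-Nur77-KO library. F2rl2 held 3 to 8 and 9 to 22 counts. S100a10 stood at 53.4 ± 2.84 CPM in BMDM-WT and 139.7 ± 11.3 CPM in BMDM-Nur77-KO. Its partner Anxa2 was at 315 ± 25.9 and 311 ± 18.0 CPM, with overlapping libraries (log2 difference of -0.02 ± 0.08, adjusted p = 0.87). Lrp1, a receptor that clears protease and inhibitor complexes, was lower at 18 h (-0.67 ± 0.18, adjusted p = 0.0068, edgeR's quasi-likelihood test). It was also called lower at 5 h (-0.67 ± 0.18, adjusted p = 0.0086, same test). At 5 h its libraries overlapped, at 189.6 to 461 CPM in BMDM-Nur77-KO and 368 to 636 CPM in BMDM-WT. F2rl2 was also higher at 0 h (0.82 ± 0.18, adjusted p = 0.0024) and 5 h (0.96 ± 0.2, adjusted p = 0.0011), F2r, the thrombin receptor, at 5 h (0.67 ± 0.2, adjusted p = 0.015), and Cd36 at 0 h (0.64 ± 0.13, adjusted p = 7.7e-04).

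Of the anticoagulants 4 were tested and none was called between genotypes at 0, 5 or 18 h, a number too small to be read against the 4.81% to 9.82% of all genes called. Tfpi, the inhibitor of tissue factor and factor X, was at 19.0 ± 1.38 CPM in BMDM-WT and 17.1 ± 2.1 CPM in BMDM-Nur77-KO at 0 h, with a log2 difference of -0.15 ± 0.13 (adjusted p = 0.47). By 18 h it was at 9.61 ± 0.849 and 8.39 ± 1.3 CPM, a change of -0.98 ± 0.14 in BMDM-WT, below the limit on size, and of -1.03 ± 0.14 in BMDM-Nur77-KO (adjusted p = 1.3e-07). F13a1, which cross-links fibrin, fell by 4.11 on the log2 scale by 18 h in BMDM-WT (adjusted p = 4.2e-17) and by 4.09 in BMDM-Nur77-KO (adjusted p = 9.9e-17). Plat, tissue plasminogen activator, held 0 or 1 count in each BMDM-WT library at 0 and at 18 h, and 38 to 66 counts at 1 h.

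LPS changes in this list were few at 1 h and more frequent later, as over all genes. At 1 h 1 of the 23 was higher and none lower in each genotype, Plat in both, where 5.19% of all genes were called in BMDM-WT and 4.53% in BMDM-Nur77-KO. At 5 h, with 33.7% and 32.6% of all genes called, the counts were 4 up and 2 down for BMDM-WT, and 4 up and 3 down for BMDM-Nur77-KO. At 18 h 1 was higher and 10 lower in BMDM-WT, with a median log2 change of -0.76, and in BMDM-Nur77-KO 2 were higher and 10 lower, with a median of -0.81, where 27.4% and 31.8% of all genes were called and the medians over all genes were -0.01 and -0.03. F2rl3, a thrombin receptor, fell by 3.8 on the log2 scale by 5 h in BMDM-WT (adjusted p = 6.2e-09) and fell by 4.11 in BMDM-Nur77-KO (adjusted p = 5.3e-11), and by 18 h none of the BMDM-WT libraries held a count of it. At 5 h F2rl3 held 0 to 2 counts in each BMDM-WT library and 1 to 2 in each BMDM-Nur77-KO library. The size of its fall is thus limited by depth. F2rl2 fell by 4.04 by 18 h in BMDM-WT (adjusted p = 5.3e-13). Between 0 and 18 h, the log2 change of S100a10 was higher in the knockout than in BMDM-WT (difference of 1.38 ± 0.1, adjusted p = 7.7e-11), and the change was more negative in the knockout for Pros1, the protein S cofactor of protein C (-0.62, adjusted p = 0.0032), Ano6, a phospholipid scramblase (-0.58, adjusted p = 2.6e-05), and Anxa2 (-0.45, adjusted p = 0.0048). Of the 11 genes of this list called in BMDM-WT at 18 h, 10 had thus fallen.

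**Figure D4:**
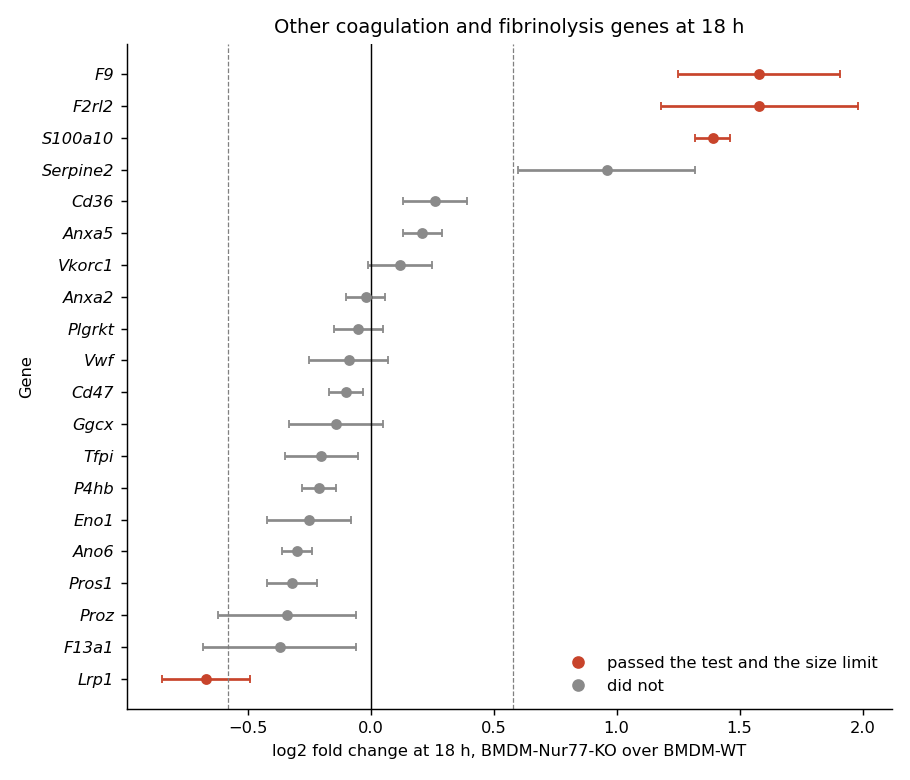
Log2 fold change at 18 h of BMDM-Nur77-KO over BMDM-WT with its standard error for the tested genes of the pathway list, leaving out F2r, F2rl3 and Plat, which had no library above 3 counts in at least 1 genotype. Red points passed the test and the limit of 0.58 (dashed lines); F9 and F2rl2 at 1.58 and S100a10 at 1.39 are higher and Lrp1 at -0.67 is lower. F9 and F2rl2 rest on 6 to 14 and 3 to 8 counts in each BMDM-WT library.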

How the data were processed

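Gene expression was measured by bulk RNA-seq in 32 libraries of 8 groups. The authors aligned the reads to mm10 with HISAT2 (2.1.0; CASAVA 1.8.2 is also named in the processing notes), kept alignments with a mapping quality over 15 and counted tags per RefSeq transcript with HOMER. The deposited values are estimated counts in steps of 0.5, and 28.6% of them were not whole. They were rounded, and the transcript with the highest mean was kept per gene. Of 42361 transcript rows, 42203 were named by RefSeq and 65 by GENCODE M21, and the 93 unnamed rows (0.233 to 1.37% of a library's counts) were left out.

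The 9 genes, the pathway list and the marker lists were chosen with earlier results of these data known. The rule for naming genes of the pathway list took, in each comparison, the 3 called with the largest change, and Tfpi, Plat, F13a1 and F5 whatever they did, and not all of them are printed. A gene of that list is not reported here and was left out of its counts and medians. Other genes named (S100a10, Lrp1, Ano6 and Anxa2 at 18 h, and Pf4 and other markers) were named after their values were seen. Counts were tested with edgeR 4.0.16 (TMM scaling, quasi-likelihood test) in R 4.3.3, fitting all 8 groups together, over 11279 genes. A gene entered when the mean RPKM of any group was over 1. P-values were adjusted by the Benjamini-Hochberg method over all of them. CPM are counts per 1000000 of the TMM-scaled library total. DESeq2 1.42.0 and other filters, scalings and fits were tried as alternatives. Steps were tested on simulated counts. Same-numbered libraries of the 2 genotypes were checked for shared deviations (r from -0.367 to 0.254), as were those of a genotype at the times compared (r from -0.699 to 0.46, with 5 of 40 pairs over 0.1), and were not treated as pairs.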

Additional observations from a re-analysis of the deposited data

Results flagged for a closer look

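In BMDM-Nur77-KO at 0 h, Plaur in replicate 1 read 113 CPM, apart from the other 3 libraries of its group (134 to 137 CPM). Its gap to the nearest of them was 0.869 of the group's range, above Dixon's 95% critical value for 4 samples. It was the only such value among 72 groups of 4 libraries, where chance alone is taken to give about 1 in 20.

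The LPS response of Procr at 5 h differed between genotypes by -0.61 on the log2 scale (adjusted p = 0.033, edgeR), with BMDM-Nur77-KO rising less, and the call was lost when any of 11 of the 16 libraries was left out. The LPS response of Thbs1 at 18 h differed by 1.8 (adjusted p = 6.6e-06, edgeR), with BMDM-Nur77-KO rising more. All 4 knockout libraries were above all 4 wild-type libraries at 18 h and below them at 0 h.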

How the results depend on the processing

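With the replicate number of the labels as a replicate block, the members called were 5, 2 and 7 for the genotype at 0, 5 and 18 h, as without it, and no call of a member changed. In none of the comparisons, between genotypes or between times, did all 4 same-numbered pairs deviate together with r over 0.1. The members with a called interaction, 1 at 5 h and 1 at 18 h, became 2 and 2 in DESeq2 (Plaur was added at 5 h and Serpinb2 at 18 h), 2 at 18 h with all transcript rows summed, 0 at 5 h in a fit to the libraries compared, and 0 to 1 at 5 h and 1 to 2 at 18 h without 1 library. Genotype calls among the members at 5 h, 2 in all, were 4 with no limit on size and 1 to 3 without 1 library, and the 3 LPS calls at 1 h in BMDM-Nur77-KO were 6 with no limit on size. Pathway list genes called with no limit on size were 5, 10 and 8 for the genotype at 0, 5 and 18 h, 4 and 12 for LPS at 1 and 5 h in BMDM-WT and 2 and 17 for LPS at 1 and 5 h in BMDM-Nur77-KO. The genotype count of that list at 5 h was 0 in a fit to the libraries compared and 1 to 7 without 1 library. Changes near 0 that took the other sign, none of them called, were F7 from 0 to 1 h in BMDM-WT (0.024 in DESeq2, 0.020 with its size factors, -0.080 to 0.055 without 1 library) and Plau from 0 to 1 h in BMDM-Nur77-KO (0.013, 0.013, 0.001 with filterByExpr, 0.005 with no filter, and -0.037 to 0.012 without 1 library). Without 1 library, the interactions at 5 h of F7 (-0.043 to 0.15), Thbd (-0.21 to 0.64) and Plau (-0.12 to 0.052), that of F3 at 18 h (-0.044 to 1.15), and the genotype differences at 5 h of Thbd (-0.58 to 0.27) and Plaur (-0.056 to 0.27) also changed sign, and none of these was called. The cause was not tested. Members near the floor are limited by depth: F3 and Thbd at 18 h, Thbd at 5 h, Serpinb2 at 0 h, and Serpinb2 in BMDM-WT at 18 h. The settings filterByExpr and no filter tested 12215 and 18060 genes. Summing all transcript rows of a gene may count a read shared by its transcripts more than once.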
